A study of Mus musculus with 4 samples.

Results

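The genes described here encode ionotropic glutamate receptor subunits. They are those of the AMPA class (Gria1, Gria2, Gria3 and Gria4) and of the kainate class (Grik1, Grik2, Grik3, Grik4 and Grik5). The accessibility of their chromatin was measured in nuclei sorted for forebrain inhibitory neurons. These 9 genes were chosen by name, with earlier results of these data known, out of 21911 protein-coding genes in the annotation. Every one of them held a peak in every library. Nuclei came from mice of the genotype Dlx6aCre;Sun1/sfGFP at postnatal day 30 and were sorted for GFP before 10x Genomics single-nucleus ATAC-seq, with 2 libraries from cortex (CTX) and 2 from hippocampus (HP). Both brain regions carried the same alleles, and there was no untreated or wild-type group. Cre from Dlx6a regulatory sequence is active in GABAergic lineages of the ventral forebrain. Sun1/sfGFP places GFP on the nuclear envelope of cells that have expressed Cre. The sort thus aimed at inhibitory neurons of all classes together, and signal of other cells is given below. Whether the 2 libraries of a brain region came from separate animals is not given in the labels, so p-values measure the spread between libraries only.

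AMPA receptors carry most of the fast excitatory current onto neurons, and their calcium permeability depends on whether the edited Gria2 subunit is part of the channel. Fast-spiking interneurons are known for AMPA receptors that are poor in that subunit. Kainate receptors combine the subunits of Grik1, Grik2 or Grik3, which can form channels alone, with the high-affinity subunits of Grik4 and Grik5, which need a partner, and they modulate transmitter release and excitability in hippocampal interneurons.

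A value is the number of Tn5 cut sites in the library's own peaks touching the transcribed gene or the 2 kb ahead of its start, per 1000000 cut sites of that library (CPM). Accessibility was measured here, and no RNA. The libraries were uneven. They held 2355 nuclei (cortex 1), 4191 (cortex 2), 5576 (hippocampus 1) and 3184 (hippocampus 2), with 117290059, 32005984, 72384520 and 47934269 cut sites. Cortex 2 stood apart with a median of 7352 cut sites per nucleus and 61965 peaks, while the other libraries had medians of 12686 to 47236 and 98419 to 157220 peaks. Between 11 and 47 barcodes were shared by any 2 libraries. The GABAergic marker genes Gad1, Gad2, Slc32a1, Dlx1, Dlx2 and Dlx5 were detected in every library, and the lowest of them stood at 31.5 to 70.6 CPM. The interneuron marker Vip was at 0 in both hippocampal libraries. Of the 6 genes marking excitatory neurons, between 2 and 5 were detected per library, at a summed 40.0 to 68.7 CPM, and Neurod6 was at 0 in all 4 libraries. Lists for other cells summed higher, at 204.0 to 264.6 CPM for microglia (4 genes) and 116.3 to 156.3 for astrocytes (5 genes). Endothelium (3 genes) was at 58.7 to 124.3 CPM and striatal projection neurons (5 genes) at 95.1 to 136.7. The part of these other cells in the results was not tested. The oligodendrocyte lineage list of 8 genes summed to 209.7 to 279.9 CPM. Nuclei without more cut sites in it than in a list of 7 GABAergic marker genes were 96.1% of cortex 1. They were 88.2% of cortex 2, 87.1% of hippocampus 1 and 87.8% of hippocampus 2. The remaining nuclei leaned to the oligodendrocyte list. The part of this list in the results was not tested beyond the values given below. Doublets were not called, and nuclei high in both gating genes were left out of both gates.

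The sequences below come from single regions named further on. Each is 150 bp from the middle of the stretch that peaks of all 4 libraries covered (or of the whole region where that was shorter), in a region that differed between groups of nuclei or, for the first Grik3 entry, that ranked first between brain regions, read from RefSeq's GRCm38.p6 genome in the direction of the gene. All lie in introns. Capitals mark matches to the E-box core CANNTG or to the AP-1 motif TGANTCA, searched on both strands together with TAATTA and AGGTCA.
Grik3 intron, smallest p between brain regions, chr4:125572395-125572544, plus strand: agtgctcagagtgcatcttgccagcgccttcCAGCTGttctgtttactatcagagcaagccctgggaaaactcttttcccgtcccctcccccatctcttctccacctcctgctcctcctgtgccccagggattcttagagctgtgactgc
Gria1 intron, higher in Lhx6-leaning nuclei, chr11:57163428-57163577, plus strand: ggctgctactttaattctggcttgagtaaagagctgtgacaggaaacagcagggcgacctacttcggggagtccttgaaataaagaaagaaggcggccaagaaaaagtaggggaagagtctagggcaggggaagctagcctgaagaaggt
Grik3 intron, higher in Lhx6-leaning and lower in Pvalb-leaning nuclei, chr4:125696278-125696427, plus strand: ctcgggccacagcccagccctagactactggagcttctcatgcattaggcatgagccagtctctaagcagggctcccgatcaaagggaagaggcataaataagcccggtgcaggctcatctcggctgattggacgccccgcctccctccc
Grik4 intron, lower in Lhx6-leaning nuclei, chr9:42652245-42652394, minus strand: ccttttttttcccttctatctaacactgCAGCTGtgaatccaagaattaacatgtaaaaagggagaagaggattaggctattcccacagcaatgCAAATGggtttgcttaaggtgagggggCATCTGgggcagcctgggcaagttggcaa
Grik2 intron, lower in Lhx6-leaning nuclei, chr10:49437135-49437284, minus strand: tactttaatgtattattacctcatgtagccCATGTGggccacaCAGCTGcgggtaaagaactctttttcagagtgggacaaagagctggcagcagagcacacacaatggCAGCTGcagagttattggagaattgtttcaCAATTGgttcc
Grik4 intron, also lower in Lhx6-leaning nuclei, chr9:42566111-42566260, minus strand: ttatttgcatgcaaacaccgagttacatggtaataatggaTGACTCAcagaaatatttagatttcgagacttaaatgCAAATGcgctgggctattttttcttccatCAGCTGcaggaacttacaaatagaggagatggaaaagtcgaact
Grik1 intron, lower in Pvalb-leaning nuclei, chr16:87924144-87924293, minus strand: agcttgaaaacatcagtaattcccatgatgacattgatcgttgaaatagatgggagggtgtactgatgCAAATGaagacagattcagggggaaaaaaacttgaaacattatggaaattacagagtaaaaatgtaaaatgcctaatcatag
Grik4 intron, lower in Pvalb-leaning nuclei, chr9:42597693-42597842, minus strand: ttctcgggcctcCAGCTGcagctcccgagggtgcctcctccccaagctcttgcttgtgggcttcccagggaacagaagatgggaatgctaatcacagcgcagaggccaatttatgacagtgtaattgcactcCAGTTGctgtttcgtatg
The Grik2 window held 4 matches to CANNTG and the Grik4 windows held 3, 2 and 2, while the Gria1 window and the second Grik3 window held none. The motif was found in 57.3% of 150-bp windows at the middle of each of the 46698 regions shared by the 4 libraries. TGANTCA was matched once, in the window of the Grik4 region also lower in Lhx6-leaning nuclei, against 6.30% of all windows. No printed window held TAATTA (3.39% of all windows) or AGGTCA (7.01%). A match describes letters only.

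RefSeq promoter sequences were matched for 6 of the 9 genes (Gria2, Gria4, Grik2, Grik3, Grik4 and Grik5). The 300 bases around the Grik3 start were 82.0% G or C and held 50 CpG dinucleotides, against a median of 52.7% and 7 over 32851 promoter entries. The 150 bases before that start are shown because the region over it was higher in Lhx6-leaning nuclei.
Grik3 promoter, chr4:125490546-125490695, plus strand: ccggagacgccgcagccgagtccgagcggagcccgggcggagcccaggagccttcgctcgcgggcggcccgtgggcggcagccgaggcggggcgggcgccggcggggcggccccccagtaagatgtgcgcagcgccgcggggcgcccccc
The other 5 promoters were 59.7% to 72.0% G or C, with 10 to 42 CpG dinucleotides. CANNTG was found in 4 of the 6 promoter sequences, against 72.3% of all promoter entries, and the other 3 motifs in none of the 6.

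Among the AMPA genes, Gria1 (chr11:57011387-57330244, plus strand) had the highest level in every library. It stood at 398.4 CPM in cortex 1, 209.8 in cortex 2, 1258 in hippocampus 1 and 502.5 in hippocampus 2. Both hippocampal values lay above both cortical values, and the 2 hippocampal libraries differed by 2.50-fold. Gria2 (chr3:80681450-80802835, minus strand) was the most even of the 4 across libraries, at 110.9, 104.5, 86.1 and 89.2 CPM in the same order. Gria3 (chrX:41400854-41678601, plus strand), an X-linked subunit gene, had the lowest level and the widest spread, at 50.2, 4.34, 34.0 and 19.8 CPM. Its value in cortex 2 came from 139 cut sites in a single peak of 254 bp. Gria4 (chr9:4417896-4796234, minus strand), a subunit of fast-gating receptors, stood at 80.1, 58.1, 107.1 and 85.9 CPM.

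Among the kainate genes that can form channels alone, Grik1 (chr16:87895900-88290265, minus strand) had 187.6, 159.3, 222.8 and 189.7 CPM in cortex 1, cortex 2, hippocampus 1 and hippocampus 2. Grik2 (chr10:49094833-49788766, minus strand) had 147.1, 71.1, 129.7 and 119.7 CPM. Grik3 (chr4:125490700-125714173, plus strand) had 275.3, 137.6, 265.3 and 259.6 CPM. For Grik2 and Grik3 the low value was that of cortex 2, which lay 2.07-fold (Grik2) and 2.00-fold (Grik3) below cortex 1, and the other 3 libraries lay close together.

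The high-affinity genes were the most even of the kainate class. Grik4 (chr9:42518135-42944493, minus strand) had 229.0, 265.7, 273.9 and 244.6 CPM. Grik5 (chr7:25009849-25072346, minus strand) had 219.6, 263.3, 271.5 and 272.9 CPM. Its window overlaps Zfp574 at the Grik5 start, and peaks at the edges of the window reach beyond it, so values of Grik5 cannot be told apart from those of neighbouring genes.

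**Figure D1:**
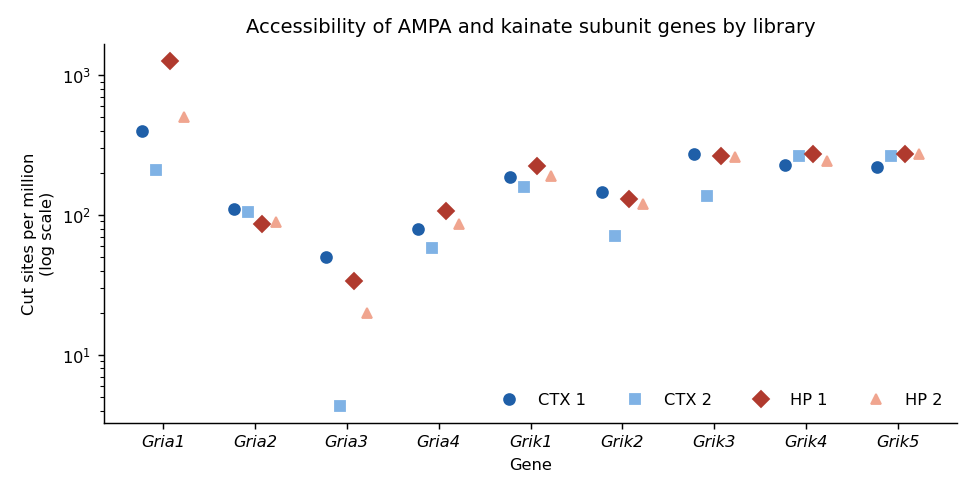
Level in CPM (vertical axis, log scale) of the 9 subunit genes (horizontal axis) in the 2 cortical (CTX, blue) and 2 hippocampal (HP, red) libraries, 1 point per library. Gria1 reaches 1258 CPM in hippocampus 1, the highest point, and Gria3 falls to 4.34 CPM in cortex 2.

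Per kilobase of gene window, averaged over the 4 libraries, the order of levels was Grik5 (3.98 CPM per kb, signal shared with neighbouring genes included), Gria1 (1.85), Grik3 (1.04), Gria2 (0.792), Grik4 (0.591), Grik1 (0.479), Gria4 (0.218), Grik2 (0.168) and Gria3 (0.0969). The median over all coding genes was 0.645 to 0.698 CPM per kb in the 4 libraries, so Gria2 and the 3 genes before it lay above it and the other 5 genes below. Grik5 and Gria1 stood at the 87.7th and 73.3rd percentile of all coding genes, and Gria3 at the 28.1th. Neighbours in the order were not tested against each other.

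The genes also differed in where their signal lay. Peaks touching the 2 kb to either side of the start were counted whole, so that a long peak adds cut sites from beyond this window. In these peaks Gria2 had 57.7% to 77.8% of its cut sites, Gria3 57.9% to 100% and Gria4 33.0% to 80.4%. Gria1 had 9.51% to 17.8% there, Grik4 6.84% to 15.2% and Grik3 9.18% to 22.1%. Most of the signal of Gria1, Grik3 and Grik4 was thus in other peaks, and the start position itself lay in a peak in every library except in cortex 2 for Gria3, Grik3 and Grik5.

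The comparison of hippocampus with cortex asked whether these genes differ in accessibility between the sorted nuclei of the 2 brain regions. None of the 9 passed edgeR's quasi-likelihood test at a Benjamini-Hochberg adjusted p under 0.05 over 16303 genes, where 1 gene passed (0.00613%). Gria1 had the largest difference of the 9, higher in hippocampus with a log2 fold change of 1.63 ± 0.65 (SE, n = 2 libraries against 2, adjusted p = 1.00 in edgeR). Its unadjusted p in the same edgeR fit across all genes was 0.0467, the only one of the 9 under 0.05. Among all genes 355 had an unadjusted p under 0.05, and DESeq2 called 297 genes and none of the 9.

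The other 8 genes had log2 differences between -0.22 and 0.56, with SEs of 0.23 to 1.39. Gria4 was at 0.56 ± 0.31, Grik3 at 0.40 ± 0.43 and Grik1 at 0.33 ± 0.31. Grik5 was at 0.27 ± 0.28, Grik2 at 0.24 ± 0.43 and Grik4 at 0.16 ± 0.29. Gria2 was at -0.22 ± 0.23 and Gria3 at -0.0029 ± 1.39. The median of the 9 was 0.27, beside -0.011 over all genes tested, and 7 of the 9 were positive. The common dispersion of 0.415 in this comparison measures how far libraries of the same brain region lay apart. In the first comparison of gates below it was 0.0034. That value comes from sums of nuclei with the library as a block and is not a spread between nuclei. In bulk sums a larger share of nuclei with an open gene and more cut sites per nucleus cannot be told apart.

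The size of the Gria1 difference depended on whether the length called as peak was taken into account. Peaks covered 60.7 kb of the 321 kb window in cortex 1, 9.80 kb in cortex 2, 186.4 kb in hippocampus 1 and 56.4 kb in hippocampus 2. CPM per covered kilobase was 6.56, 21.4, 6.75 and 8.90. In hippocampus 1 the covered share of 58.1% exceeded that of 99.96% of the 2546 genes with windows of at least 100 kb, and the longest peak ran for 12.7 kb. With the covered length as an offset the log2 difference was -0.17 ± 0.20. Level and covered length did not always move together. Cortex 1 had more covered length than hippocampus 2 but a lower level (398.4 against 502.5 CPM). Peaks are called from the signal, so this offset can also take out a difference in accessibility. Which of these applied was not tested.

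Counted in regions shared by all libraries, Gria1 had 274.6, 209.8, 556.3 and 331.9 CPM and a log2 difference of 1.09 ± 0.43. Within a shared region the cut sites were those of each library's own peaks, so the length counted could still differ. Peaks touching the 2 kb to either side of the start, counted whole, had 52.9, 37.3, 119.6 and 58.3 CPM and a difference of 1.28 ± 0.63. Hippocampus 1 carried much of each value, and without that library the difference was 0.67 ± 0.65. Scaling to library totals without the trimmed-mean (TMM) factor gave 1.53 ± 0.28 and an edgeR adjusted p of 0.00037, the only one of the alternatives run under which Gria1 passed.

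Along Gria1 the elevation in hippocampus was broad. Over 33 bins of 10 kb, both hippocampal libraries exceeded both cortical libraries in 22 bins and the reverse was seen in none. Hippocampus 1 was highest in 32 bins. Peak cut sites were spread evenly over each peak for this profile, and cortex 2 had no peak in 15 bins, against 2 in cortex 1, 1 in hippocampus 2 and none in hippocampus 1.

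**Figure D2:**
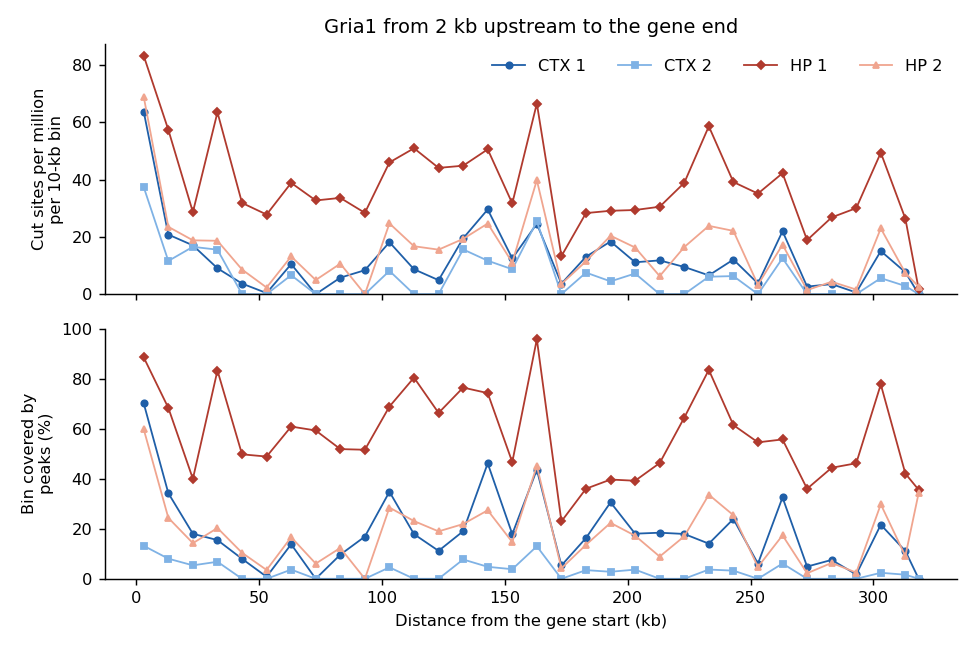
CPM in 10-kb bins (upper panel) and percent of each bin covered by peaks (lower panel) along Gria1, against distance from the gene start in kb, with 1 line per library (CTX cortex, HP hippocampus). Hippocampus 1 lies highest in 32 of 33 bins and also has the most bases called as peak.

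The value of Gria3 turned on which cortical library was used. Without cortex 1 its hippocampal difference was 2.85 ± 0.54 (edgeR adjusted p = 0.045), and without cortex 2 it was -0.86 ± 0.42 (adjusted p = 1.00 in edgeR). No direction can be read for it.

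Among single regions, 71 of the 46698 shared by the 4 libraries lay in the 9 gene windows, 51 of them intronic and 20 touching an exon. None of the 71 differed between hippocampus and cortex in edgeR (0% of all regions called), 12 of the 71 had an unadjusted p under 0.05, as did 3575 of all regions, and DESeq2 called 352 of all regions. All 17 regions of Gria1 had a positive difference, from 0.41 to 1.87. A region in an intron of Grik3 at chr4:125570991-125572752, 81.2 kb downstream of the start, had the smallest p among the positive differences, with 3.66 CPM in cortex 1, 3.12 in cortex 2, 14.9 in hippocampus 1 and 15.8 in hippocampus 2. Both hippocampal values were above both cortical ones, and the log2 difference was 2.32 ± 0.30 (edgeR adjusted p = 0.51). It was called by DESeq2 (adjusted p = 2.4e-05) and by edgeR without cortex 1 (2.52, adjusted p = 0.0012). The called peaks in it were 601 bp, 193 bp, 1661 bp and 1599 bp long, in the same order, so that the length counted moved with the result.

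The negative difference with the smallest p lay at an exon of Grik4 (chr9:42549665-42550672), with 11.1 and 14.0 CPM in the cortical and 6.04 and 7.93 CPM in the hippocampal libraries. Its log2 difference was -0.70 ± 0.27 (edgeR adjusted p = 0.62). Here too the peaks were longer in cortex (1008 bp and 608 bp) than in hippocampus (525 bp and 504 bp).

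Nuclei were next split within each library by the cut sites of Lhx6, the homeobox gene of interneurons from the medial ganglionic eminence, and of Adarb2, a gene open in interneurons from the caudal ganglionic eminence. A nucleus was Lhx6-leaning when its share of cut sites in Lhx6 was above the library median and its share in Adarb2 was not, and Adarb2-leaning in the reverse case. The gates held 667, 634, 1287 and 717 Lhx6-leaning and 667, 427, 1457 and 806 Adarb2-leaning nuclei in cortex 1, cortex 2, hippocampus 1 and hippocampus 2. These gates rest on sparse counts and are not cell types. The Lhx6 median was 0 in cortex 2, hippocampus 1 and hippocampus 2, and the Adarb2 median was 0 in cortex 2 and hippocampus 2. There any cut site in the gene made a nucleus high. The MGE list (Lhx6, Sox6, Satb1, Sst, Pvalb and Nxph1) summed to 577.2 to 1106 CPM in the Lhx6-leaning and 279.1 to 629.8 CPM in the Adarb2-leaning sums, and the CGE list (Adarb2, Prox1, Nr2f2, Vip, Htr3a and Npas1) to 76.9 to 158.8 and 335.0 to 500.5 CPM. Both lists hold gating genes. The median cut sites per nucleus were higher in the Lhx6-leaning gate in every library (51512 against 44860 in cortex 1 and 8993 against 8262 in cortex 2, for example).

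With the library as a block (n = 4 libraries), 4 of the 9 genes passed edgeR's test, beside 10.0% of the 16170 genes tested. The 9 had been chosen with earlier results of these data known, so these shares are a description. Gria3, Grik3 and Gria1 were higher in Lhx6-leaning nuclei and Grik4 was lower. Without cortex 1, cortex 2, hippocampus 1 and hippocampus 2 in turn, 3, 2, 4 and 2 of the 9 passed. The largest change was in Gria3, with 55.7 CPM in Lhx6-leaning against 42.4 CPM in Adarb2-leaning nuclei of cortex 1, 5.31 against 2.97 in cortex 2, 38.0 against 26.8 in hippocampus 1 and 22.5 against 18.3 in hippocampus 2. It was higher in 4 of 4 libraries, with a log2 fold change of 0.42 ± 0.08 (SE, edgeR adjusted p = 0.0018).

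Grik3 stood at 300.9 against 229.0 CPM in cortex 1, 156.6 against 134.2 in cortex 2, 278.9 against 237.2 in hippocampus 1 and 278.6 against 237.4 in hippocampus 2. It was also higher in all 4 libraries, by a log2 fold change of 0.28 ± 0.04 (edgeR adjusted p = 0.00022). Gria3 and Grik3 each passed when any one library was left out, with edgeR adjusted p of at most 0.034 and 0.0053. With a gate at 1 cut site in place of the median, Grik3 was at 0.35 (edgeR adjusted p = 0.066). In cortex 2 and hippocampus 2 that gate held the same nuclei as the main gate.

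Gria1 was at 405.2 against 386.5 CPM in cortex 1 and 226.7 against 220.3 in cortex 2, and at 1434 against 1047 in hippocampus 1 and 573.3 against 453.9 in hippocampus 2. The difference was small in cortex and larger in hippocampus, and over all 4 libraries the log2 fold change was 0.25 ± 0.06 (edgeR adjusted p = 0.042). This call was lost without cortex 2 (0.29, edgeR adjusted p = 0.058), without hippocampus 1 (0.17, adjusted p = 0.084) and without hippocampus 2 (0.21, adjusted p = 0.165). It was also lost in DESeq2 (adjusted p = 0.145), with library totals (edgeR adjusted p = 0.058), in the start window (0.070) and with nuclei of at least 5000 cut sites (0.060).

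Grik4 was at 199.4 against 271.9 CPM in cortex 1, 248.6 against 274.8 in cortex 2, 269.5 against 272.4 in hippocampus 1 and 241.0 against 268.4 in hippocampus 2. It was lower in Lhx6-leaning nuclei in 4 of 4 libraries, most in cortex 1, and its log2 fold change was -0.19 ± 0.06 (edgeR adjusted p = 0.047). Without cortex 1 it was -0.096 (edgeR adjusted p = 0.29), without cortex 2 it was -0.21 (adjusted p = 0.18) and without hippocampus 2 it was -0.21 (adjusted p = 0.13). It also failed with no filter or with library totals (edgeR adjusted p = 0.051 in both), in shared regions (0.16), in the start window (0.36) and with a gate at 1 cut site (0.17).

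The other 5 genes had log2 differences from -0.024 to 0.13. Grik1 was at 0.13 ± 0.06, Grik5 at 0.10 ± 0.05, Gria4 at 0.075 ± 0.056, Gria2 at -0.020 ± 0.048 and Grik2 at -0.024 ± 0.046. Grik1 passed without hippocampus 1 (0.21, edgeR adjusted p = 0.034). Gria2, the subunit that sets calcium permeability, differed by less than its SE. The median of the 9 was 0.10, beside -0.00011 over all genes tested.

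The oligodendrocyte list summed to 199.9 to 280.9 CPM in the Lhx6-leaning and 181.4 to 264.7 CPM in the Adarb2-leaning sums. Without the library as a block none of the 9 genes passed in edgeR, with no gene called over all (187 of all genes had an unadjusted p under 0.05).

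**Figure D3:**
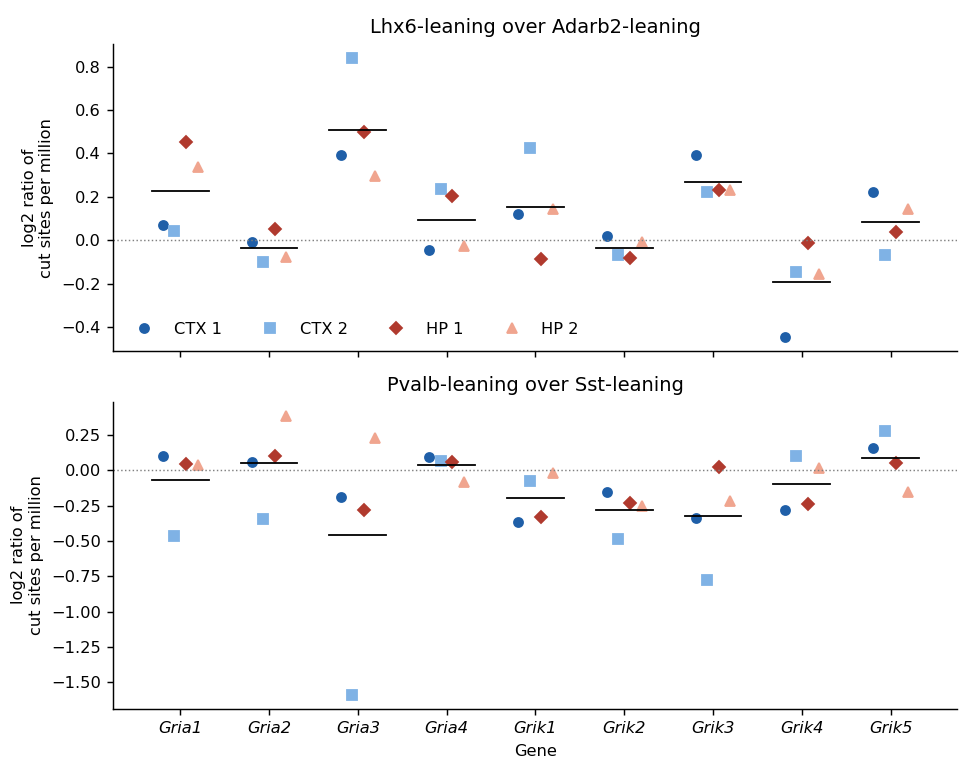
Log2 ratio of CPM between gates (vertical axis) for the 9 genes (horizontal axis), Lhx6-leaning over Adarb2-leaning (upper panel) and Pvalb-leaning over Sst-leaning (lower panel), with 1 point per library and a bar at the mean of the 4. Gria3 and Grik3 lie above 0 and Grik4 below 0 in all 4 libraries of the upper panel, and the lowest Gria3 point of the lower panel is cortex 2.

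Each gating gene was also used alone, as a split of each library's nuclei at its median, and these values are given as a description. Where that median was 0, the high group was every nucleus with a cut site in the gene. It then held from 5.62% of nuclei (Sst, hippocampus 2) to 47.0% (Lhx6, hippocampus 1). High groups also had more cut sites per nucleus, with medians of 15374 against 9762 by Lhx6 in hippocampus 1, for example. By Lhx6, nuclei in the high group had more accessible Gria3 (mean log2 ratio 0.31), Gria1 (0.25) and Grik3 (0.16) in 4 of 4 libraries and less accessible Grik4 (-0.13) in 4 of 4. By Sst, the neuropeptide gene of dendrite-targeting interneurons, 6 of the 9 genes were higher in 4 of 4 libraries, led by Grik3 (0.33), Gria3 (0.31) and Grik1 (0.18). By Adarb2, Gria3 (-0.24) and Grik3 (-0.13) were lower in 4 of 4 and Grik4 (0.083) and Grik2 (0.053) were higher in 4 of 4. By Pvalb, the calcium buffer of fast-spiking interneurons, only Grik5 of the 9 was on the same side in all 4 libraries, with a mean of 0.087. The 5th to 95th percentile of all genes compared ran from -0.17 to 0.16 for Lhx6, from -0.22 to 0.19 for Sst, from -0.14 to 0.12 for Adarb2 and from -0.19 to 0.18 for Pvalb. Grik4 by Lhx6, Grik1 by Sst, Grik3, Grik4 and Grik2 by Adarb2 and Grik5 by Pvalb lay inside these ranges, and Grik3 by Lhx6 lay at the upper end. Gria3 by Adarb2 lay outside its range through cortex 2 (-0.77), where the gene had few cut sites. It was at -0.11 in cortex 1, -0.097 in hippocampus 1 and -0.0055 in hippocampus 2, each inside the range. Of all genes compared, 14.0% were higher and 20.1% lower in all 4 libraries for Lhx6, 10.4% and 16.8% for Sst, 9.34% and 14.2% for Adarb2, and 13.3% and 20.7% for Pvalb.

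The Lhx6-leaning and Adarb2-leaning difference was placed within the genes by the shared regions. Of the 71 regions in the 9 genes, 21 passed in edgeR, 15 higher and 6 lower in Lhx6-leaning nuclei, beside 20.8% of all 46684 regions tested. Gria1 held 6 higher regions out of 17 and none lower, and Grik3 held 3 higher out of 11 and none lower. Grik4 held 4 lower and 1 higher out of 14. Gria2 and Gria3 had no region that passed, out of 5 and 1.

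The Gria1 region with the smallest p, printed above, was chr11:57163042-57165243, in an intron 152.8 kb from the start. It had 9.45 against 5.43 CPM in cortex 1, 12.3 against 7.02 in cortex 2, 20.3 against 10.9 in hippocampus 1 and 9.04 against 5.52 in hippocampus 2. It was higher in Lhx6-leaning nuclei in every library, and the log2 fold change was 0.77 ± 0.14 (edgeR adjusted p = 0.0013). A second intronic Gria1 region at chr11:57038637-57043373 was higher by 0.39 ± 0.09 (edgeR adjusted p = 0.0042). Both passed without any one library.

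In Grik3 an intronic region at chr4:125695703-125696741, 205.5 kb from the start, had 17.3 against 9.54 CPM in cortex 1, 31.1 against 28.6 in cortex 2, 15.95 against 9.73 in hippocampus 1 and 19.1 against 11.4 in hippocampus 2 (log2 fold change 0.60 ± 0.13, edgeR adjusted p = 0.0038). The region over the Grik3 start, chr4:125489531-125493547, holds the promoter sequence printed above, a coding exon and UTR, and was higher by 0.36 ± 0.08 (edgeR adjusted p = 0.0067). The gene start window gave Grik3 a log2 fold change of 0.41 (edgeR adjusted p = 3.5e-05), larger than that of the gene as a whole.

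The 6 lower regions were 4 in Grik4, 1 in Grik2 and 1 in Gria4, and those with the smallest p were in Grik4 and Grik2. An intronic Grik4 region at chr9:42651917-42652740 had 3.16 against 8.19 CPM in cortex 1, 5.31 against 7.29 in cortex 2, 5.50 against 6.87 in hippocampus 1 and 3.63 against 9.03 in hippocampus 2, with a log2 fold change of -0.94 ± 0.21 (edgeR adjusted p = 0.0050). Another at chr9:42565552-42566654, which touches a coding exon, was lower by -0.48 ± 0.12 (edgeR adjusted p = 0.0089), and this call was lost without cortex 2 (adjusted p = 0.055). The intronic Grik2 region at chr10:49437016-49437405 was small, with 28 against 131 cut sites in cortex 1, 5 against 2 in cortex 2, 40 against 78 in hippocampus 1 and 31 against 60 in hippocampus 2. It was lower by -1.35 ± 0.32 on the log2 scale (edgeR adjusted p = 0.0072), with cortex 2 on the other side. Grik2 as a whole differed by less than its SE.

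Within Lhx6-leaning nuclei, Pvalb-leaning and Sst-leaning nuclei were taken by the same rule, against the medians of those nuclei. These gates were small, with 241, 92, 254 and 127 Pvalb-leaning and 177, 60, 110 and 55 Sst-leaning nuclei. Over all nuclei the Sst median was 0 in every library, and the Pvalb median was 0 in every library except cortex 1. In cortex 2 and hippocampus 2 these gates held the same nuclei as a gate at 1 cut site. None of the 9 genes passed in edgeR, beside 2.35% of the 15118 genes tested. An unadjusted p under 0.05 was seen for 3 of the 9 and for 1912 of all genes tested. DESeq2 called none of the 9 either and 97 genes in all. Grik3 was at 270.9 against 342.6 CPM in cortex 1, 127.2 against 217.3 in cortex 2, 288.9 against 283.6 in hippocampus 1 and 270.6 against 314.3 in hippocampus 2. It was lower in Pvalb-leaning nuclei in 3 of 4 libraries, by a log2 fold change of -0.27 ± 0.09 (edgeR adjusted p = 0.14).

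Grik2 was at 141.6 against 157.8, 61.5 against 86.3, 115.3 against 135.0 and 96.6 against 115.3 CPM, lower in 4 of 4 libraries (-0.24 ± 0.11, edgeR adjusted p = 0.31). Grik1 was at -0.23 ± 0.09 and also lower in 4 of 4 (edgeR adjusted p = 0.25). The other 6 genes had log2 differences from -0.19 (Gria3, ± 0.18) to 0.079 (Grik5, ± 0.084), with Grik4 at -0.13 ± 0.09, Gria1 at -0.020 ± 0.076, Gria4 at 0.045 ± 0.11 and Gria2 at 0.072 ± 0.12. The median of the 9 was -0.13, beside 0.0020 over all genes tested.

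Of the 67 regions of the 9 genes that could be tested between these gates, 3 (4.48%) passed in edgeR, all lower in Pvalb-leaning nuclei. That share was no higher than the 5.10% of all 41300 regions. A Grik1 region touching a coding exon at chr16:87923237-87924556 had 31 against 125 cut sites in cortex 1, 3 against 11 in cortex 2, 51 against 31 in hippocampus 1 and 8 against 14 in hippocampus 2. In CPM of the gate these were 2.40 against 13.1, 3.08 against 17.0, 11.1 against 15.4 and 3.29 against 14.3, with a log2 fold change of -1.74 ± 0.41 (edgeR adjusted p = 0.0078). The Grik3 region at chr4:125695703-125696741 was lower by -1.03 ± 0.26 (edgeR adjusted p = 0.013). It was the one region named in both comparisons, higher in Lhx6-leaning nuclei and, among them, lower in Pvalb-leaning nuclei in 4 of 4 libraries (11.8 against 26.1, 18.5 against 43.2, 9.35 against 20.9 and 13.2 against 18.4 CPM).

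A Grik4 region touching a coding exon at chr9:42597306-42598256 was lower by -0.77 ± 0.24 (edgeR adjusted p = 0.0496), at 15.4 against 36.7 CPM in cortex 1, 24.6 against 21.6 in cortex 2, 21.1 against 29.4 in hippocampus 1 and 12.3 against 24.5 in hippocampus 2. Without cortex 1, the library with the most cut sites, none of the 3 regions passed (edgeR adjusted p of at least 0.23). Without hippocampus 1 the Grik3 and Grik4 regions did not pass (edgeR adjusted p = 0.072 and 0.12), nor did Grik4 without hippocampus 2 (adjusted p = 0.092) or in DESeq2 (adjusted p = 0.21).

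**Figure D4:**
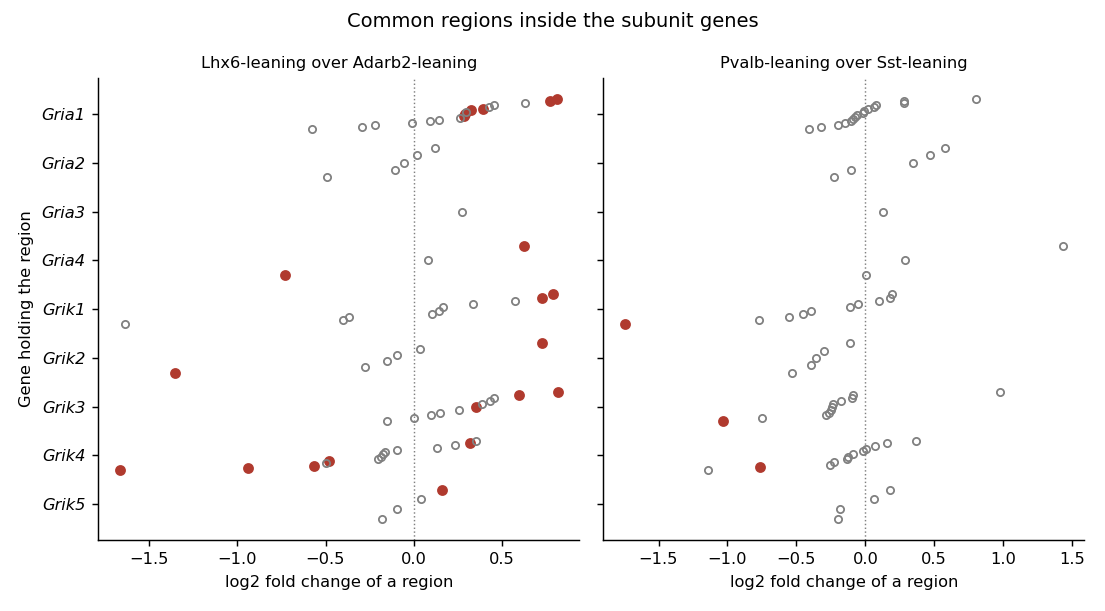
Log2 fold change (horizontal axis) of each region shared by the 4 libraries in the 9 genes (vertical axis), Lhx6-leaning over Adarb2-leaning (left) and Pvalb-leaning over Sst-leaning (right). Filled red points passed in edgeR at an adjusted p under 0.05 and open grey points did not, with 21 filled points on the left and 3 on the right.

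The comparison of brain regions was repeated within each gate. In Lhx6-leaning nuclei none of the 9 genes passed in edgeR, beside 0.00618% of genes, and in Adarb2-leaning nuclei none passed, beside 0.00617%. In each gate 1 of the 9 had an unadjusted p under 0.05, as had 396 and 346 of all genes, in the same order. DESeq2 called none of the 9 in either gate. Gria1 was higher in hippocampus by a log2 difference of 1.76 ± 0.62 in Lhx6-leaning and 1.40 ± 0.57 in Adarb2-leaning nuclei, with edgeR adjusted p of 1.00 in both. In Lhx6-leaning and Adarb2-leaning nuclei Gria2 was at -0.13 and -0.16, Gria3 at -0.019 and -0.037, Gria4 at 0.60 and 0.55, and Grik1 at 0.20 and 0.44. Grik2 was at 0.23 and 0.28, Grik3 at 0.33 and 0.44, Grik4 at 0.29 and 0.074, and Grik5 at 0.33 in both.

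The interaction of gate and brain region, which tests the difference between these differences within libraries, passed for 1 of the 9 genes, beside 0.543% of 16930 genes. Gria1 had an interaction of 0.34 ± 0.06 on the log2 scale (edgeR adjusted p = 0.0033). Its Lhx6-leaning over Adarb2-leaning log2 ratio was 0.068 and 0.041 in the 2 cortical and 0.45 and 0.34 in the 2 hippocampal libraries. In regions shared by all libraries the interaction was 0.30 (edgeR adjusted p = 0.0036), and DESeq2 gave 0.34 (adjusted p = 0.00021). It did not pass without cortex 1 (0.36, edgeR adjusted p = 0.082), without hippocampus 1 (0.28, adjusted p = 0.64) or without hippocampus 2 (0.40, adjusted p = 0.13).

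The other interactions were 0.24 ± 0.08 for Grik4 (edgeR adjusted p = 0.27), -0.21 ± 0.09 for Grik1 (adjusted p = 0.50) and -0.11 ± 0.08 for Grik3 (adjusted p = 0.84). Gria4 was at 0.066, Gria2 at 0.025, Gria3 at -0.012, Grik5 at -0.022 and Grik2 at -0.050. Grik4 passed without cortex 2 (0.37, edgeR adjusted p = 0.0060) and in regions shared by all libraries (0.29, adjusted p = 0.042).

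A list of 22 partner genes of these receptors, also chosen with earlier results of these data known, was followed alongside, all detected in every library. It covers auxiliary AMPA subunits (Cacng2, Cacng3, Cacng4, Cacng5, Cacng7, Cacng8, Cnih2, Cnih3, Shisa6, Shisa7, Shisa9, Gsg1l and Frrs1l), kainate auxiliary subunits (Neto1 and Neto2), scaffold and clustering proteins (Grip1, Grip2, Pick1, Nptx1, Nptx2 and Nptxr) and the RNA editing enzyme gene Adarb1. Between Lhx6-leaning and Adarb2-leaning nuclei 6 of the 22 (27.3%) passed in edgeR, 3 in each direction, beside 10.0% of all genes tested.

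Cacng3 rose by 0.35 ± 0.05 (edgeR adjusted p = 0.00027) and Cacng7 by 0.32 ± 0.05 (adjusted p = 0.00033) on the log2 scale in Lhx6-leaning nuclei, both in 4 of 4 libraries. Both encode transmembrane AMPA receptor regulatory proteins. Neto1, whose product alters the gating of kainate receptors, rose by 0.16 ± 0.05 (edgeR adjusted p = 0.044). Cacng5 fell by 0.43 ± 0.07 (edgeR adjusted p = 0.00038), Shisa9 by 0.30 ± 0.04 (adjusted p = 0.00016) and Shisa6 by 0.18 ± 0.05 (adjusted p = 0.036), and each was lower in 4 of 4 libraries. Cacng5 encodes another AMPA regulatory protein, and Shisa6 and Shisa9 encode AMPA receptor partners that shape desensitization. The median of the list was 0.079.

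Shisa9 was the one partner gene of 22 to pass between Pvalb-leaning and Sst-leaning nuclei, beside 2.35% of all genes tested. It was at 216.0 against 104.6 CPM in cortex 1, 163.1 against 94.0 in cortex 2, 129.7 against 104.6 in hippocampus 1 and 119.2 against 87.8 in hippocampus 2, higher in Pvalb-leaning nuclei in 4 of 4 libraries, by a log2 fold change of 0.68 ± 0.11 (edgeR adjusted p = 0.00048). Shisa6 was at -0.70 ± 0.21 (edgeR adjusted p = 0.14) and Cacng2, the stargazin gene, at 0.29 ± 0.09 (adjusted p = 0.086). Between brain regions none of the 22 passed in edgeR. An unadjusted p under 0.05 was seen for 2 of them, beside 355 of the 16303 genes tested. They were Cacng4 at 0.98 ± 0.25 and Nptx2 at -0.80 ± 0.31. None of the 22 passed in the interaction.

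**Figure D5:**
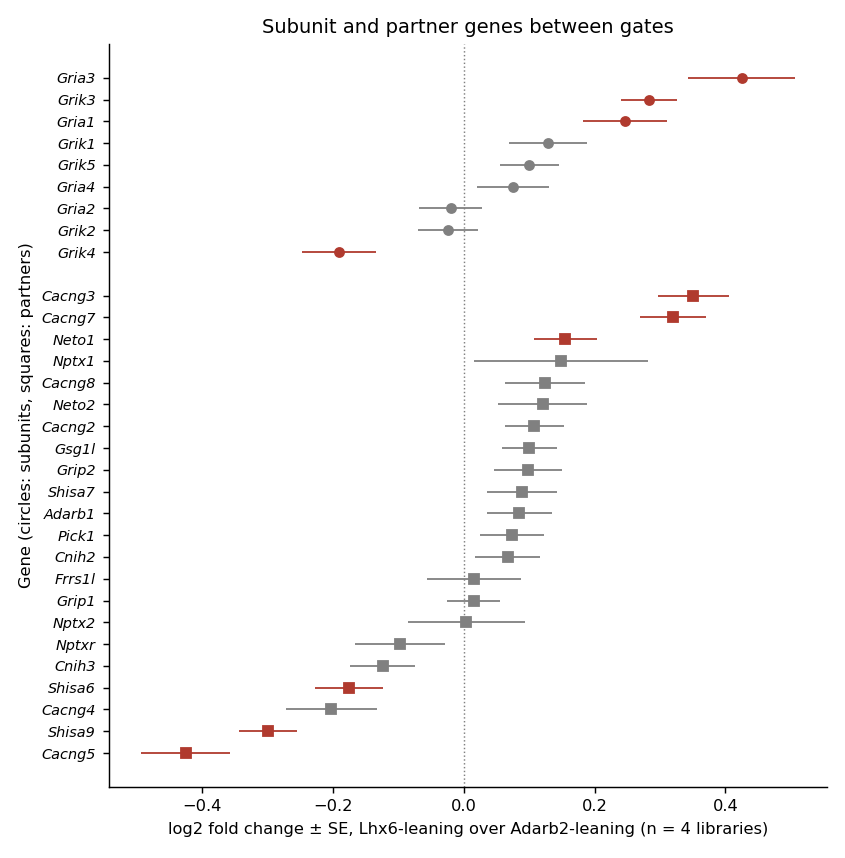
Log2 fold change ± SE (horizontal axis) of the 9 subunit genes (circles) and the 22 partner genes (squares) in Lhx6-leaning over Adarb2-leaning nuclei, n = 4 libraries, red where the edgeR adjusted p was under 0.05. Gria3 and Cacng3 are the highest of their lists, and Grik4 and Cacng5 the lowest.

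The subunit genes whose values ran together were sought over 12 sums (Pvalb-leaning, Sst-leaning and Adarb2-leaning nuclei of each library, less the library's mean). Gria3 and Grik3 had a Pearson correlation of 0.89, Gria1 and Gria3 one of 0.81, Gria1 and Gria4 one of 0.73 and Gria1 and Grik3 one of 0.72. The most negative values were -0.61 for Grik4 and Grik5, -0.57 for Gria2 and Grik5 and -0.51 for Grik2 and Grik5, and Grik4 stood at -0.40 to -0.48 with Gria1, Gria3 and Grik3. These are descriptions over sums that share libraries and depth. Outside the lists the genes most like Grik3 were Dmd (0.98) and St6galnac3 (0.97), those most like Gria3 were Cemip2 (0.99) and Pam (0.97), and those most like Gria1 were Tex26 (0.94) and Ccdc136 (0.94). With 12 sums such values were common, and 59 genes exceeded 0.9 with Grik3, 46 with Gria3 and 11 with Gria1. For Gria2 they were Eif3l (0.98) and Egfl8 (0.98), for Gria4 Mrpl38 (0.97) and Cyp2f2 (0.90), for Grik1 Atg9b (0.94), for Grik2 Egr2 (0.97) and Btnl9 (0.97), for Grik4 Btbd16 (0.94) and Zfp366 (0.94), and for Grik5 Cnnm1 (0.94) and Nfkbid (0.92).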

How the data were processed

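Peaks, barcodes and a matrix of raw counts of cut sites per peak and nucleus were deposited for each library, and the authors' processing notes name Cell Ranger ATAC 1.2.0 and GRCm38 (mm10). Peaks had been called per library and no normalization applied. The deposited motif matrices were not used. Counts were summed over nuclei per gene (GENCODE M21, body and 2 kb upstream, overlap of at least 1 bp), and over 46698 regions of merged peaks holding a peak of every library. Tests were edgeR 4.0.16 quasi-likelihood fits (R 4.3.3) with TMM factors and filterByExpr, Benjamini-Hochberg over all features, genes overlapping a gating gene left out of gate comparisons, and DESeq2 1.42.0 as an alternative. The scripts were tested on simulated data. Named were all 9 subunit genes, partner genes that passed or had the smallest p, and at most 3 regions per direction with the smallest p (1 where none passed). Members and lists were chosen with earlier results of these data known. Alternatives covered tool, scaling, filter, window, peaks, gate, nuclei, pairing and leaving out each library. Equal replicate numbers are not stated to pair libraries, and the data could not settle whether they do. Depth ran from 32005984 to 117290059 cut sites per library. Some withheld items are not reported here.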

Additional observations from a re-analysis of the deposited data

Results flagged for a closer look

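The interaction of gate and brain region for Gria1, a test of the difference between 2 differences, was 0.34 on the log2 scale (edgeR adjusted p = 0.0033). In 4 of 54 sets of log2 ratios over the 4 libraries 1 library lay far from the other 3, and about 1 set in 20 stands out in this way by chance. The gap to the nearest library as a share of the whole range was 0.939 for Grik3 between Lhx6-leaning and Adarb2-leaning nuclei, where cortex 1 was highest (0.39). It was 0.894 for Gria1 between Pvalb-leaning and Sst-leaning nuclei, where cortex 2 was lowest (-0.46). Split by Adarb2 alone it was 0.863 for Gria3, where cortex 2 was lowest (-0.77), and 0.889 for Grik5, where cortex 1 was lowest (-0.12).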

How the results depend on the processing

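The causes of the shifts below were not tested. Depth limits Gria3 in cortex 2 (139 cut sites) and the Sst-leaning sums. Alternatives left 462 of 558 values of the 9 genes and 63 of 73 of the named regions on the same side of 0 and of the threshold.

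The count of 1 for genes called between brain regions became 297 with DESeq2, 20 with library totals without TMM, 2 with the gene start window, 0 with shared regions, 0 with the replicate block, 3 with the covered length as offset and 0 to 396 without each library in turn. The count of 1620 for genes called between Lhx6- and Adarb2-leaning nuclei became 835 with the gene start window, 0 with no library block, 939 with a gate at 1 cut site and 875 to 1453 without each library in turn. The count of 356 for genes called between Pvalb- and Sst-leaning nuclei became 97 with DESeq2, 75 with the gene start window, 0 with no library block, 215 with a gate at 1 cut site and 30 to 386 without each library in turn. The count of 1 for genes called between brain regions in Lhx6-leaning nuclei became 129 with DESeq2, 11 with library totals without TMM, 2 with the gene start window, 0 with shared regions and 2 to 140 without each library in turn. The count of 1 for genes called between brain regions in Adarb2-leaning nuclei became 68 with DESeq2, 2 with no filter, 21 with library totals without TMM, 2 with the gene start window, 0 with shared regions and 7 to 412 without each library in turn. The count of 92 for genes called in the interaction became 23 with DESeq2 and 1 to 288 without each library in turn. The count of 0 for regions called between brain regions became 352 with DESeq2 and 0 to 3184 without each library in turn. The count of 9717 for regions called between Lhx6- and Adarb2-leaning nuclei became 3836 with regions at least 50% covered and 6577 to 8035 without each library in turn. The count of 2106 for regions called between Pvalb- and Sst-leaning nuclei became 1043 with DESeq2, 996 with regions at least 50% covered and 141 to 2105 without each library in turn.

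Sign changes between brain regions were with DESeq2 Gria3 0.031, with the gene start window Gria2 0.046, Gria3 0.47, Grik3 -0.13, Grik4 -0.056, with shared regions Gria3 0.39, with the replicate block Gria3 0.87, with oligodendrocyte-leaning nuclei left out Gria3 0.026, with the covered length as offset Gria1 -0.17, Gria2 0.14, Gria4 -0.18, Grik2 -0.052, Grik5 -0.23. Sign changes between Lhx6- and Adarb2-leaning nuclei were with the gene start window Grik2 0.084, Grik5 -0.12, with shared regions Grik2 0.0098, with a gate at the 67th percentile Gria2 0.0096. Sign changes between Pvalb- and Sst-leaning nuclei were with the gene start window Gria1 0.035, Gria2 -0.085, Gria3 0.17, Grik4 0.0057, Grik5 -0.051, with shared regions Gria3 0.16, with no library block Gria1 0.025, with a gate at the 67th percentile Gria1 0.054, Gria4 -0.014, with a gate at 1 cut site Gria2 -0.0043, with nuclei of at least 5000 cut sites Gria1 0.0059. Sign changes between brain regions in Lhx6-leaning nuclei were with DESeq2 Gria3 0.036, with the gene start window Gria2 0.14, Gria3 0.41, Grik2 -0.028, Grik3 -0.22, with shared regions Gria2 0.00046, Gria3 0.32. Sign changes between brain regions in Adarb2-leaning nuclei were with DESeq2 Gria3 0.034, with library totals without TMM Grik4 -0.015, with the gene start window Gria2 0.11, Gria3 0.40, Gria4 -0.0032, with shared regions Gria3 0.30, Grik4 -0.083.

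Leaving out each library in turn changed the sign of these log2 differences. Between brain regions Gria3 ran from -0.86 to 2.85, Grik2 ran from -0.23 to 1.01, Grik3 ran from -0.062 to 1.13, Grik4 ran from -0.028 to 0.35. Between Lhx6- and Adarb2-leaning nuclei Grik2 ran from -0.049 to 0.00045. Between Pvalb- and Sst-leaning nuclei Gria1 ran from -0.059 to 0.071, Gria2 ran from -0.0068 to 0.16. Between brain regions in Lhx6-leaning nuclei Gria2 ran from -0.28 to 0.071, Gria3 ran from -0.84 to 2.72, Grik2 ran from -0.24 to 1.00, Grik3 ran from -0.10 to 1.02. Between brain regions in Adarb2-leaning nuclei Gria3 ran from -0.88 to 3.13, Grik2 ran from -0.16 to 0.99, Grik4 ran from -0.037 to 0.20. In the interaction Gria4 ran from -0.13 to 0.17, Grik2 ran from -0.077 to 0.018, Grik3 ran from -0.16 to 0.0071, Grik5 ran from -0.13 to 0.16, Gria3 ran from -0.42 to 0.072, Gria2 ran from -0.041 to 0.095.

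The replicate block, with the replicate number as block, gave Gria1 1.54 and called none of the 9 genes between brain regions, and 0 regions. Deviations of equally numbered libraries correlated at 0.17. With 2 libraries per brain region the opposite pairing gives -0.17 by construction, so this check could not settle pairing. The numbers were not taken as pairs.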
